A study of Mus musculus with 3 samples.

Results

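Meprin A subunit alpha (Mep1a) and 6 other peptidases of the cell surface (Mep1b, Anpep, Dpp4, Enpep, Ggt1 and Mme) were followed in mouse kidney tubule cells given vehicle or a vitamin D compound. The 7 genes are named members of this peptidase group, and every non-control probe that the array design assigns to one of them was taken, 15 of 56605 probes and 7 of 36335 genes. The group was put together with the differences of these same arrays in view, and its members were chosen by the measured processed signals and detection calls reported below. Those values therefore describe them and carry no test.

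The cells were mpkDCT, a mouse line named for the distal convoluted tubule, in which CRISPR-Cas9 had disrupted Cyp27b1, the gene of the renal enzyme that converts calcidiol to calcitriol. All 3 groups carried this knockout, and the labels do not say whether the line was 1 clone. One group received vehicle, one calcitriol (1,25(OH)2D3) and one calcidiol (25(OH)D3), each hormone at 1e-07 M for 24 h, in a medium without phenol red, with charcoal-stripped serum, that had been put on 24 h earlier. Total RNA was hybridised to 1-colour Agilent arrays, with 1 array per group and 3 in all. The sample titles bear a tag, siCT, that the labels do not explain, and the description of the calcidiol sample writes the compound with one more hydroxyl, whereas its treatment tag reads 25(OH)D3.

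Each value below is the processed signal of a spot in arbitrary units, with the scanner's technical error after ±. That error leaves aside how much cultures vary, and since each group is a single array, no difference was checked in replicates. Differences are on the log2 scale after each array was set to its 75th percentile. The arrays were alike in the share of spots well above background, 49.7% to 51.0%. They were less alike in the lowest signal called well above background, 13.4 for vehicle, 13.8 for calcitriol and 17.9 for calcidiol. Spots flagged as outliers numbered 635, 388 and 1131 in that order. The Cyp27b1 probe stayed near background on every array (2.91, 7.05 and 3.82 for vehicle, calcitriol and calcidiol); its place relative to the edited site is not stated in the labels. Of 10 distal convoluted tubule markers on the array, 3 were detected with vehicle and 4 with each hormone, and Slc12a3, the defining sodium-chloride cotransporter, was undetected on all of them. Detected markers of other cell types numbered 3 of 13 for proximal tubule, 0 of 6 for thick ascending limb, 2 of 11 for collecting duct, 3 of 8 for fibroblasts, 5 of 7 for immune cells, 1 of 6 for endothelium and 2 of 4 for podocytes.

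These peptidases sit in the plasma membrane or are shed from it, and they cut peptides outside the cell. In the kidney they are best known from the brush border of the proximal tubule, where they trim hormones, glutathione and filtered peptides before uptake. Calcitriol acts through the vitamin D receptor, a nuclear receptor that binds DNA as a partner of a retinoid X receptor, and calcidiol binds the same receptor more weakly.

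The sequences shown first belong to the 2 genes whose signals differed most, Mep1a and Ggt1, since a promoter is where a hormone-bound receptor could act. RefSeq windows of 250 bases before a gene's start, on GRCm38.p6, were found for 6 of the 7 members, and Mep1a had 1 window, Ggt1 had 4. They were searched on both strands for the half-sites of the receptor, for 2 half-sites in the same direction with NNN between them and for the letters TATAAA of a TATA box. The receptor's half-site was written as AGGTCA in its usual form, and the variant forms searched were AGTTCA with a central thymine, GGGTCA with a leading guanine, and GGTTCA with both of these changes. Capitals mark half-sites, as read on the printed strand in either orientation, and each run is printed 5′ to 3′ along the gene's own strand. Of the 4 Ggt1 windows, only the 2 with the most half-sites are printed, windows 3 and 4.
Mep1a, chr17:43502774-43503023, minus strand: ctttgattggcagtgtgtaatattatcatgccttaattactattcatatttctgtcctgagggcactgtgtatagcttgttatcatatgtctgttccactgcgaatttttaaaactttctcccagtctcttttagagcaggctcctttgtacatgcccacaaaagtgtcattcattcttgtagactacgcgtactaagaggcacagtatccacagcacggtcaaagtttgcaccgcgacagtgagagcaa
Ggt1, window 3, chr10:75571310-75571559, plus strand: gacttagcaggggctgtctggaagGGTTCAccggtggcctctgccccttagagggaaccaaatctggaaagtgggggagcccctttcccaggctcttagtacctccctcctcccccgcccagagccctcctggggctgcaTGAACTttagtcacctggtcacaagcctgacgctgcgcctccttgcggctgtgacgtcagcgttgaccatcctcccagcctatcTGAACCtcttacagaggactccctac
Ggt1, window 4, chr10:75573245-75573494, plus strand: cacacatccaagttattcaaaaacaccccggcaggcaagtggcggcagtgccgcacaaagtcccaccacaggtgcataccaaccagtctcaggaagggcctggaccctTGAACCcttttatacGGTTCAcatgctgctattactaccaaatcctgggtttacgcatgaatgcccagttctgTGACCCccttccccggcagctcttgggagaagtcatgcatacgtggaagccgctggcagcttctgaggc

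None of the searched letters occurred in the Mep1a window, which says only that these letters are not in those 250 bases. The 4 Ggt1 windows held 1, 2, 3 and 3 half-sites, and window 4 held TATAAA as well, on the minus strand and overlapping no half-site. At least 1 half-site was present in 38.6% of 32851 windows of this length, and TATAAA in 12.4%, so such matches are common. The share of windows with several half-sites was not computed. The spaced pair was present in 0.0396% of windows, and in none of those of the members. The Enpep window held 1 half-site and TATAAA, the Dpp4 window TATAAA alone, and the Anpep window and the 3 Mme windows none of the searched letters. The RefSeq gene model of Mep1a on GRCm38.p6 spans 43474324 to 43504143 of chromosome 17, so the printed window lies inside it, before the start of a shorter transcript. The model of Ggt1 spans 75561076 to 75586193 of chromosome 10, and all 4 of its windows likewise lie inside it, as do 2 of the 3 Mme windows inside theirs.

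Some probes span an exon junction, because their 60 bases map to a longer stretch of the mm9 build that the array files use. They are printed because they show which stretch of the message a reading comes from.
Ggt1, chr10:75048435-75048670, plus strand, from transcript base 1803: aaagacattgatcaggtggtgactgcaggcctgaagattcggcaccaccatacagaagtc
Dpp4, chr2:62192636-62194702, minus strand, from transcript base 1959: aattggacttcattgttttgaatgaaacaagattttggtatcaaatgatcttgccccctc
Enpep, chr3:129002052-129006662, minus strand, from transcript base 1723: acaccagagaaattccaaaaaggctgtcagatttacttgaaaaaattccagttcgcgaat
The Ggt1 probe was the gene's sole reading. The Dpp4 and Enpep probes shown here were undetected (not well above background) on all 3 arrays, although each of those genes had another probe that was. The brightest Mme probe also maps to a stretch longer than itself, and its sequence is not printed. The scanner files give no exon or untranslated-region annotation, and none was used here.

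**Figure D1:**
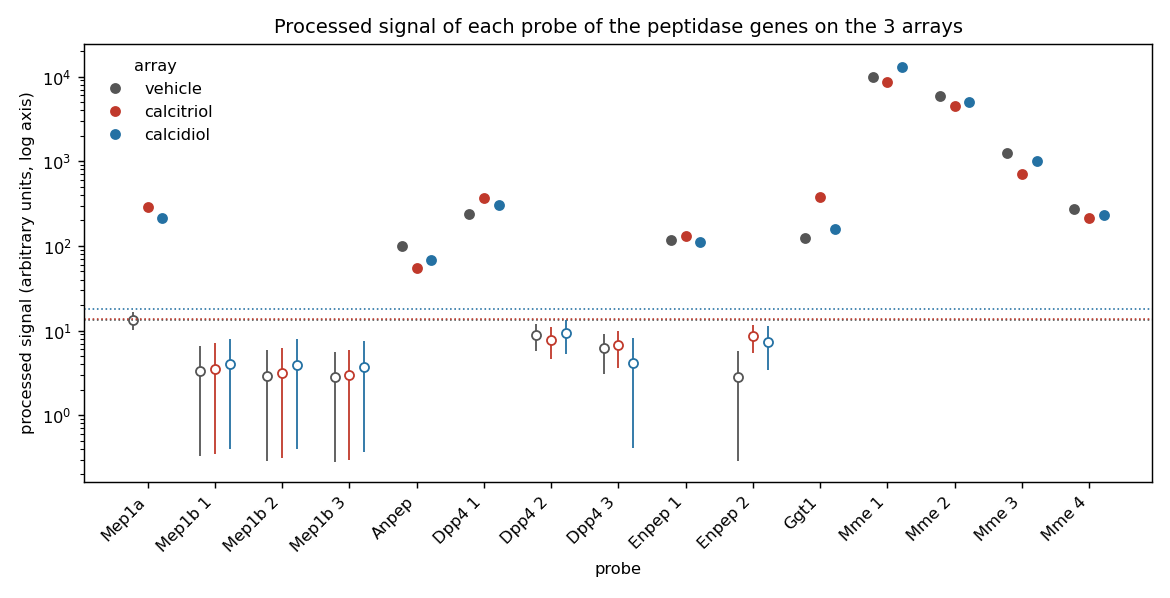
Processed signal of each of the 15 probes on the 3 arrays (log axis, arbitrary units). Filled points were well above background and open points were not, bars give the scanner's technical error (cut short of 0, which a log axis cannot show), and dotted lines mark each array's lowest signal well above background. The Mep1a point is open with vehicle (13.2) and filled with calcitriol (286) and calcidiol (211), and the 3 Mep1b probes are open throughout.

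The meprins are zinc metalloproteases of the astacin family, built from an alpha subunit, which is largely secreted as large oligomers, and a beta subunit, which stays in the membrane. Mep1a had 1 probe, at chr17:43611284-43611343 on mm9, beginning at transcript base 2857. Its signal was 13.2 ± 3.17 with vehicle, 286 ± 28.8 with calcitriol and 211 ± 21.4 with calcidiol. The hormone arrays were well above background and the vehicle array was not. The vehicle spot lay just under the lowest signal called well above background on its array, 13.4, and the scanner did call it positive and significant. Before any correction its pixels averaged 86.8 against a local background of 62, compared with 361 against 62 for calcitriol and 291 against 60 for calcidiol. The step is therefore visible in the uncorrected spots.

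Since the vehicle spot was not well above background, its level enters as a bound, the higher of its own value and the array's lowest signal well above background. By this rule Mep1a was at least 20.9-fold higher with calcitriol (log2 bound 4.39) and at least 14.6-fold higher with calcidiol (log2 bound 3.87) than with vehicle. These bounds leave out the technical error of the hormone spot, 0.15 on the log2 scale for each hormone. Taking the vehicle value at face gave 21.2-fold (log2 4.40 ± 0.38) and 14.8-fold (log2 3.89 ± 0.38). The bound depended on how background was treated. With normexp background correction and quantile normalisation it was 2.21 for calcitriol and 1.82 for calcidiol, and with an offset of 32 added before the logarithm it was 2.81 and 2.35. The signal stayed higher with both hormones under each of these settings.

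Between both hormones, which were given at the same dose and time, Mep1a was 0.52 ± 0.21 higher on the log2 scale with calcitriol, a ratio of 1.43. This is above the scanner's error but under 2-fold, and 519 of 16500 genes had a larger positive difference in that comparison. Median centring, which put the median of all genes at 0.22 here, gave 0.73.

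Mep1b, the beta subunit, had 3 probes, and none was detected on any array. Their signals ran from 2.81 to 3.98. The probes begin at transcript bases 222, 231 and 1741. The Dpp4 probes that begin at bases 232 and 1959 and the Enpep probe at base 1723 were likewise not well above background, while a probe near the far end of each of those transcripts was. Whether the place of a probe on its transcript bears on the Mep1b reading was not tested.

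Ggt1, gamma-glutamyltransferase, splits extracellular glutathione so that its amino acids can be taken up again. Its single probe read 123 ± 12.7 with vehicle, 383 ± 38.4 with calcitriol and 158 ± 16.3 with calcidiol. The calcitriol array stood apart, and the calcidiol array lay near vehicle. Calcitriol was 1.60 ± 0.21 higher than vehicle (3.04-fold), and 62 of 16654 genes had a larger positive difference. Calcidiol was 0.25 ± 0.21 higher than vehicle (1.19-fold), little more than the technical error. At the matched dose calcitriol exceeded calcidiol by 1.35 ± 0.21 (2.55-fold), and 35 of 16500 genes had a larger positive difference. Over all settings the calcitriol difference from vehicle ran from 1.19 to 1.74, and that from calcidiol from 0.95 to 1.57.

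**Figure D2:**
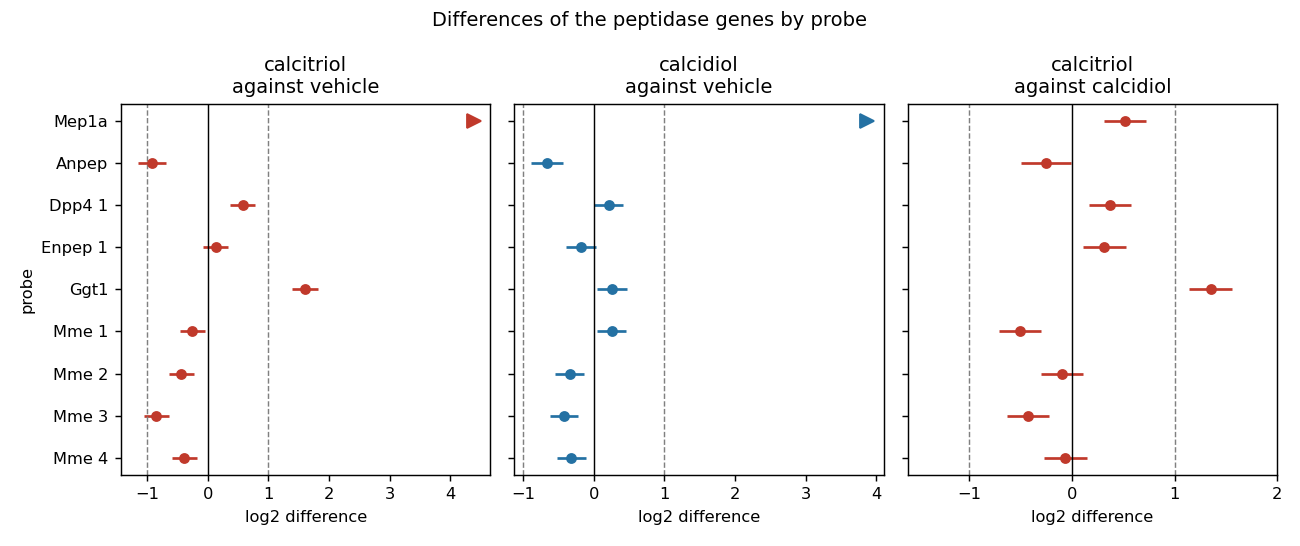
Log2 differences of each member probe that was detected, in the 3 comparisons. Points are differences with the scanner's technical error, triangles pointing right are lower bounds, and dashed lines mark 2-fold. Mep1a lies past 2-fold with both hormones (bounds 4.39 and 3.87), Ggt1 with calcitriol against vehicle (1.60) and against calcidiol (1.35), and no other point crosses the line.

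By the probe that was brightest for each gene, 2 of the 6 members that could be compared were at least 2-fold apart between calcitriol and vehicle, Mep1a and Ggt1, both higher. Over all genes compared, bounds included, 3.47% were at least 2-fold apart in either direction, and 1.34% higher. With calcidiol 1 member, Mep1a, was at least 2-fold from vehicle, where 1.84% of all genes were and 1.54% were higher. Calcitriol against calcidiol had 1 member past 2-fold, Ggt1, against 2.91% of all genes, 0.681% being higher. The members were chosen with these contrasts in view, so nothing is read from those counts. The comparisons with vehicle share the vehicle array.

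Dpp4, dipeptidyl peptidase 4, removes N-terminal dipeptides from incretins and chemokines. Its probe near the end of the transcript (chr2:62170062-62170121 on mm9, from base 3276) read 241 ± 24.3 with vehicle, 368 ± 37.0 with calcitriol and 301 ± 30.3 with calcidiol. The order was calcitriol, calcidiol, vehicle. The differences from vehicle were 0.58 ± 0.21 for calcitriol (1.49-fold) and 0.21 ± 0.21 for calcidiol, and calcitriol exceeded calcidiol by 0.37 ± 0.21. None reached 2-fold. The other Dpp4 probes, the junction probe printed above and one at chr2:62245782-62245841, read 4.14 to 6.73 and 7.76 to 9.24.

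Anpep and Enpep are membrane aminopeptidases of the M1 family: Anpep, aminopeptidase N, takes neutral residues from small peptides, and Enpep, aminopeptidase A, converts angiotensin II to angiotensin III. Anpep (chr7:86966716-86966775, from base 3336) read 100.3 ± 10.6 with vehicle, 54.2 ± 6.73 with calcitriol and 68.3 ± 7.93 with calcidiol. Both hormone arrays lay under vehicle. The differences were -0.92 ± 0.23 for calcitriol (1.89-fold lower) and -0.66 ± 0.23 for calcidiol (1.58-fold lower). A lower difference was found for 355 of 16654 genes with calcitriol and for 139 of 16648 with calcidiol. Between both hormones Anpep differed by -0.26 ± 0.25, about the size of the technical error. With normexp and quantile normalisation the calcitriol value was -0.52.

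Enpep's detected probe (chr3:128972910-128972969, from base 3333) read 118 ± 12.1 with vehicle, 132 ± 13.5 with calcitriol and 112 ± 11.8 with calcidiol. The 3 arrays were close. The differences from vehicle were 0.13 ± 0.21 for calcitriol and -0.18 ± 0.21 for calcidiol, both within the technical error, and calcitriol lay 0.31 ± 0.21 above calcidiol. Its junction probe read 2.87, 8.56 and 7.35 on the vehicle, calcitriol and calcidiol arrays.

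Mme, neprilysin, is a zinc endopeptidase that degrades natriuretic peptides, enkephalins and endothelins. It was the member with the most detected probes, 4, all well above background on every array, and they did not move alike. The brightest, which maps to a longer stretch than its own length (chr3:63188148-63188625, from base 6234), read 9963 ± 996 with vehicle, 8552 ± 855 with calcitriol and 12833 ± 1283 with calcidiol. Calcidiol was the highest array there, and the differences from vehicle were -0.25 ± 0.20 for calcitriol and 0.25 ± 0.20 for calcidiol.

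At each of the other 3 Mme probes vehicle was the highest array. The probe at chr3:63187228-63187287 (from base 5680) read 5905, 4472 and 5035 for vehicle, calcitriol and calcidiol, with differences from vehicle of -0.43 and -0.34. The probe at chr3:63185750-63185809 (from base 4202) read 1259, 715 and 1012, with differences of -0.85 ± 0.20 and -0.43. Its spot lies 2 rows or columns from the array edge. The probe at chr3:63148482-63148541 (from base 3483) read 271, 213 and 234, with differences of -0.38 and -0.32. Calcitriol was thus under vehicle at 4 of 4 Mme probes and calcidiol at 3 of 4, with no probe past 2-fold. The mean over the 4 probes was -0.48 for calcitriol and -0.21 for calcidiol, so the sign for calcidiol turned with the rule for reading several probes (0.25 by the brightest).

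**Figure D3:**
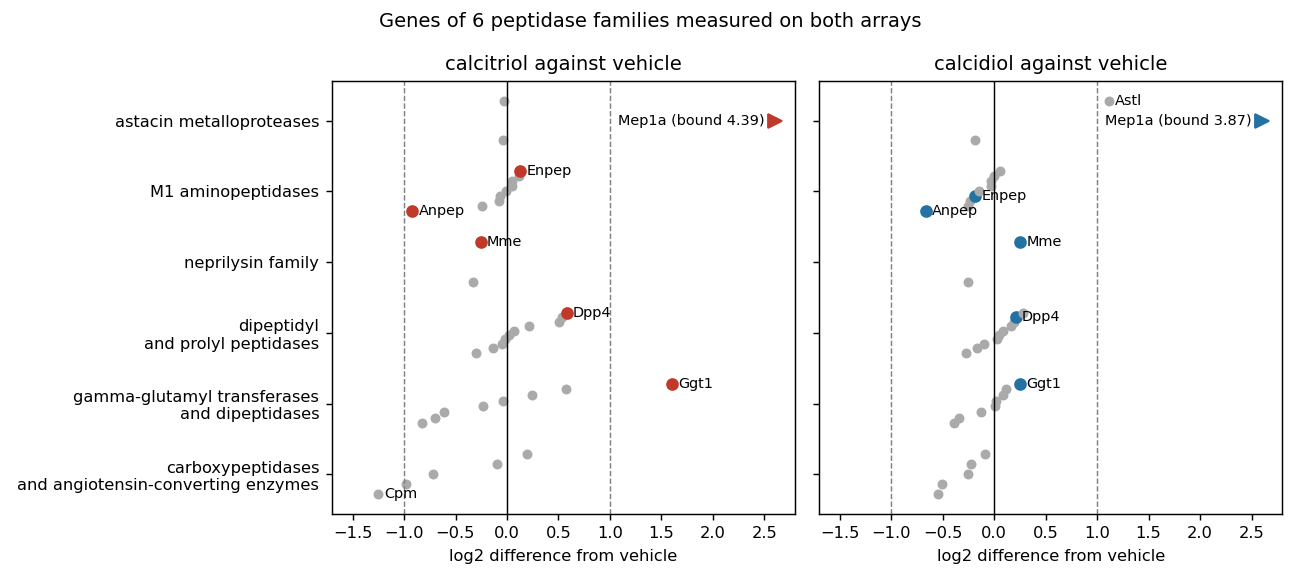
Log2 differences from vehicle for the genes of 6 peptidase families that were measured on both arrays, for calcitriol (left) and calcidiol (right). Coloured points are members, grey points are other family genes, triangles are Mep1a's lower bounds drawn at the axis edge with their value, and dashed lines mark 2-fold. Outside the members, Cpm lies past 2-fold with calcitriol (-1.25) and Astl with calcidiol (1.11).

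The wider peptidase families were described from 6 lists holding 61 genes, of which 54 were not members. With calcitriol 36 of the 61 had a difference from vehicle and 2 a bound. The median difference was -0.04, with 14 genes above 0 and 22 below it, beside -0.00 over all 16654 genes (0.09 beside 0.13 with median centring). Apart from the members, 1 gene was at least 2-fold apart, Cpm. With calcidiol the same numbers had a difference and a bound, the median was -0.06, 15 lay above 0 and 21 below it, beside -0.01 over 16648 genes. There too 1 gene apart from the members was at least 2-fold apart, Astl. Between both hormones 37 genes had a difference, with a median of 0.05 beside 0.00 over 16500 genes.

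Among the other astacins, Astl, an egg-cell protease also called ovastacin, read 23.6 with vehicle, 23.6 with calcitriol and 55.2 with calcidiol. Calcidiol stood apart, 1.11 ± 0.28 above vehicle, and calcitriol lay 1.15 under calcidiol. These signals are close to the background. Bmp1, which cleaves procollagen, differed from vehicle by -0.03 with calcitriol and -0.19 with calcidiol. Tll1 and Tll2, its close relatives, were undetected on all 3 arrays. Mep1a was thus the sole astacin of the list past 2-fold with calcitriol.

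None of the 9 M1 aminopeptidases measured passed 2-fold, and their medians were -0.01 for calcitriol and -0.15 for calcidiol. Anpep was the lowest of them with each hormone, Enpep the highest with calcitriol, and Lta4h, which also makes leukotriene B4, the highest with calcidiol (0.06). Those ranks are by the brightest probe. The other Lta4h probe gave 0.38 with calcidiol and -0.10 with calcitriol. Aopep gave 0.12 with calcitriol by its brightest probe, while 2 other Aopep probes averaged 0.38. Of the neprilysin family besides Mme, Ece1, an endothelin-converting enzyme, differed by -0.33 and -0.25. Ecel1 was well above background with vehicle alone, at a level that gave bounds of -0.44 and -0.15. Phex was undetected on all 3 arrays.

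Of the 10 dipeptidyl and prolyl peptidases measured, Dpp4 was the highest with calcitriol and Dpp7, a lysosomal dipeptidyl peptidase, the highest with calcidiol (0.28, after 0.53 with calcitriol). The lowest were Prcp (-0.30 with calcitriol) and Xpnpep3 (-0.27 with calcidiol). Another Prcp probe gave 0.13 with calcitriol, and another Dpp7 probe gave -0.08 with calcidiol and 0.73 with calcitriol. Fap, the closest relative of Dpp4, was undetected on all 3 arrays. None of the 10 passed 2-fold.

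In the list of gamma-glutamyl transferases and dipeptidases, Ggt1 was the highest of 8 measured genes with each hormone, and its relatives Ggt6 and Ggt7 lay on the other side of vehicle with calcitriol. Ggt7 read 253 with vehicle, 146 with calcitriol and 217 with calcidiol, a difference of -0.83 ± 0.21 with calcitriol and -0.34 ± 0.21 with calcidiol. Ggt6 differed by -0.61 ± 0.22 with calcitriol and 0.00 ± 0.21 with calcidiol. Ggct, the cytosolic gamma-glutamylcyclotransferase, differed by -0.69 and -0.39. Dpep1, the membrane dipeptidase that follows Ggt1 in glutathione breakdown, was undetected on all 3 arrays. The list's median was -0.13 with calcitriol and 0.01 with calcidiol.

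The carboxypeptidase list had the lowest median of the 6, -0.72 over 5 measured genes with calcitriol and -0.25 with calcidiol. These medians are the values of single genes by their brightest probe, Cpq with calcitriol and Cpd with calcidiol. The 2 other Cpq probes averaged -0.26 with calcitriol and 0.24 with calcidiol. The 2 other Cpd probes averaged -0.87 and 0.26. Cpm, a membrane carboxypeptidase that removes basic residues, read 255 with vehicle, 110 with calcitriol and 194 with calcidiol. The calcitriol array was lowest, 1.25 under vehicle on the log2 scale (2.38-fold), and the calcidiol difference was -0.50. That spot lies 2 rows or columns from the array edge, and another Cpm probe gave -1.07 and -0.05. Cpm was not past 2-fold with normexp and quantile normalisation. Leaving out the outermost 6 rows and columns removed both of these Cpm probes, so that setting gave no check of them. Folh1, a folate hydrolase, differed by -0.98 and -0.54 and was the lowest of the list with calcidiol. Cpe, a carboxypeptidase of the secretory granule, was the highest of the list with each hormone (0.20 and -0.09). Ace, which makes angiotensin II, was undetected on all 3 arrays.

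Membrane serine proteases and their inhibitors had 7 measured genes, none past 2-fold. Tmprss6, which cleaves hemojuvelin, read 84.2 with vehicle, 46.6 with calcitriol and 79.6 with calcidiol, and was the lowest with each hormone (-0.89 and -0.19). Corin, which activates natriuretic peptide precursors, was the highest with calcitriol (0.78 ± 0.34) and Tmprss3 with calcidiol (0.45). Corin read 18.7, 32.9 and 20.9 for vehicle, calcitriol and calcidiol, close to the background. Spint1 gave 0.43 with each hormone by its brightest probe, and its other probe gave 0.82 and 0.51. The ranks therefore rest on the rule of the brightest probe. St14 and Prss8, proteases that act on epithelial sodium channels, were undetected on all 3 arrays.

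Of 7 measured genes among meprin substrates and inhibitors, none passed 2-fold. Lama1, a laminin chain, was the lowest with calcitriol (-0.95) and Vegfa the highest (0.22), although 2 other Vegfa probes averaged -0.04. With calcidiol Col4a1 was the lowest (-0.45) and Il18, the precursor of a cytokine that meprins can process, the highest (0.12). Fetub and Ahsg, which encode fetuins that inhibit meprins, were undetected on all 3 arrays.

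Of the 11 brush border scaffold genes, 6 had a difference between calcitriol and vehicle, none past 2-fold. Ezr, the linker between membrane and actin, read 8063 with vehicle, 15540 with calcitriol and 11267 with calcidiol, and was the highest of its list with each hormone (0.91 and 0.37). Espn was the lowest (-0.78 and -0.10), and 2 other Espn probes averaged -0.73 and 0.04. Eps8, Slc9a3r1, Cdhr2 and Myo1a lay between them with calcitriol. Vil1, Pdzk1, Cdhr5, Ush1c and Myo7b, all of the microvillus, were undetected on all 3 arrays. Of the peptide transporters only Slc15a4 had a difference from vehicle (0.23 and 0.03), and Slc15a2 had a bound of -0.23 with calcitriol. The 2 other Slc15a4 probes with a difference averaged -0.20 and 0.01.

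Among transcription factors of the brush border programme, Hnf4a, Hnf4g, Cdx1 and Cdx2 were undetected on all 3 arrays. Maf, a bZIP factor, was the highest of the 4 measured with each hormone (0.75 and 0.50). Vdr, the hormone receptor itself, read 1560, 1386 and 1379 for vehicle, calcitriol and calcidiol and was the lowest with calcitriol (-0.20). Rxra was the lowest with calcidiol (-0.40), although its other detected probe gave 0.18. None passed 2-fold.

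The scaled signals of the 13 proximal tubule markers summed to 3298 with vehicle, 5885 with calcitriol and 4504 with calcidiol. Lrp2, megalin, led that order at 1923, 5090 and 3812 (1.37 and 0.88 above vehicle), although its 3 other probes averaged 0.79 and 0.23, under 2-fold. Cubn differed by -0.18 and -0.02, Aqp1 was below vehicle (-0.69 and -0.61), and 10 of the 13 were not detected. The 8 fibroblast markers summed to 2075, 421 and 906, with Postn at -2.63 and -1.33 and Dcn at -2.37 and -0.98. Immune markers summed to 3198, 2774 and 3329, collecting duct markers to 364, 344 and 343, and podocyte markers to 702, 615 and 664. Endothelial markers summed to 143, 83.3 and 122, and thick ascending limb markers, all undetected, to 17.9, 23.9 and 21.3. Distal convoluted tubule markers summed to 5987, 5872 and 5460, most of it from Wnk1, which read 5809, 5840 and 5717. Fewer cells of a type and less RNA per cell cannot be told apart in these bulk samples, and the part of such differences in the values of the members was not tested.

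**Figure D4:**
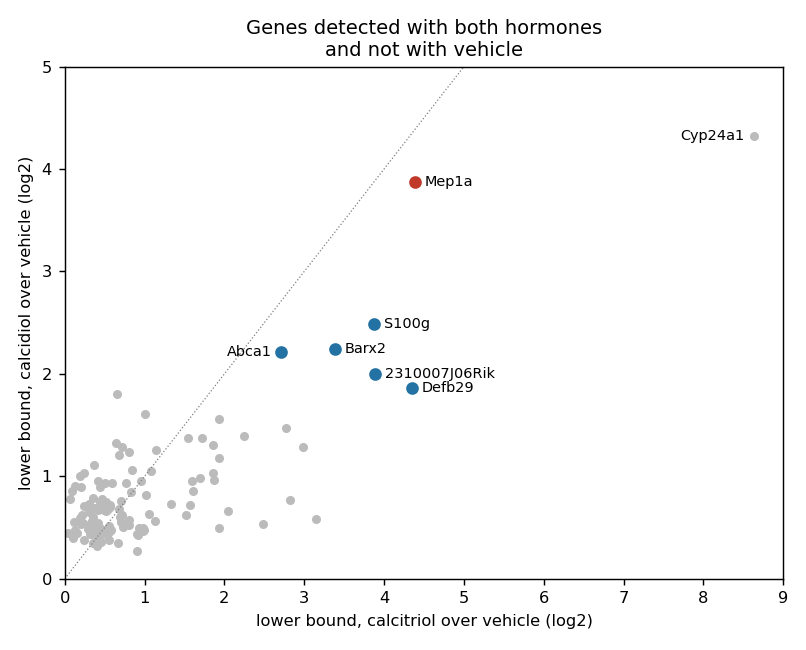
Lower bounds over vehicle (log2) for the 121 genes that were well above background with both hormones at the same probe and not with vehicle, calcitriol across and calcidiol up; the dotted line marks equal bounds. Mep1a (4.39 and 3.87) lies near that line, as does Abca1 (2.71 and 2.22), and the 5 genes nearest to Mep1a, Abca1 among them, lie at lower calcidiol bounds.

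The pattern of Mep1a, not detected with vehicle and detected with both hormones at the same probe, was shared by 121 genes, itself included. Their median bounds were 0.59 for calcitriol and 0.69 for calcidiol. Genes entered by that pattern and with bounds above 0 only, so medians above 0 follow from the rule. The lowest signal well above background was 13.8 with calcitriol and 17.9 with calcidiol, so these medians do not compare the hormones. Of the 121, 19 had bounds of at least 2-fold with both hormones and 5 of at least 4-fold. Mep1a and Cyp24a1, the hydroxylase that inactivates vitamin D, were the 2 with at least 8-fold. The bound of Cyp24a1 was 8.64 with calcitriol and 4.32 with calcidiol. A bound is set by the bright array, so it does not order the true changes of these genes, and the bounds for both hormones share the vehicle array.

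By Euclidean distance over the pair of bounds, the gene nearest to Mep1a was S100g, which encodes calbindin-D9k, a binder of calcium, at 1.47. S100g read 3.45 with vehicle, 200.5 with calcitriol and 81.0 with calcidiol, at least 14.7-fold and 5.62-fold higher than vehicle. Barx2, a homeobox factor, followed at 1.91, with at least 10.5-fold and 4.72-fold. The transcript 2310007J06Rik had at least 14.8-fold and 3.99-fold, and Defb29, a beta-defensin whose spot lies 2 rows or columns from the edge, at least 20.4-fold and 3.64-fold. Abca1, the cholesterol exporter, had at least 6.54-fold and 4.65-fold. At their probes S100g, Barx2, 2310007J06Rik and Defb29 were further apart between both hormones (1.38, 1.15, 1.89 and 2.49 higher with calcitriol) than Mep1a (0.52), while Abca1 was 0.49 higher.

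The members did not share 1 pattern over the 3 arrays. Mep1a was higher than vehicle with both hormones, Ggt1 mainly with calcitriol, and Anpep was lower with both. The counts that follow give how many genes had differences like those of a member, and do not compare the members with each other. Among 16380 genes measured on all arrays, 6 lay within 0.25 log2 units of the pair of differences of Ggt1, 121 within that distance of Anpep, 823 of Dpp4, 1384 of Mme and 4987 of Enpep. The Mme count rests on its brightest probe, and the other 3 Mme probes ran from -0.32 to -0.43 with calcidiol.

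**Figure D5:**
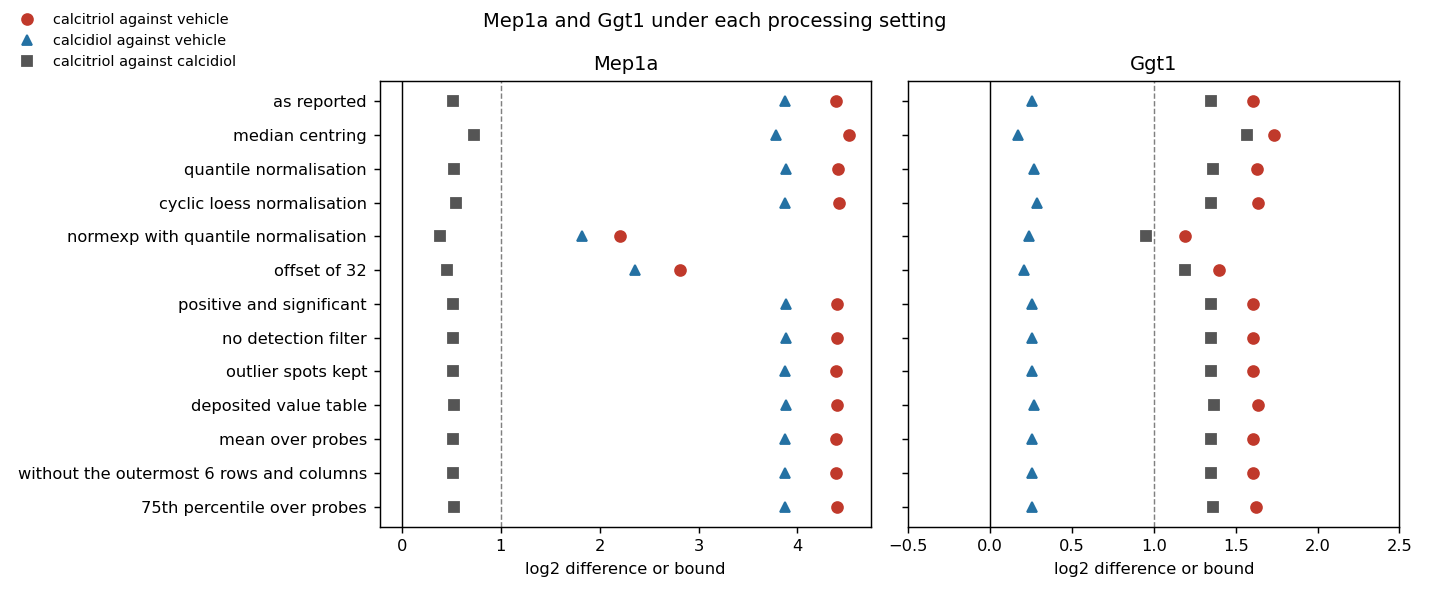
Log2 bound or difference of Mep1a (left) and Ggt1 (right) in the 3 comparisons under the reported setting and each alternative processing of the same arrays; the dashed line marks 2-fold. Mep1a's bounds against vehicle drop to 2.21 and 1.82 with normexp and quantile normalisation and stay past 2-fold, whereas Ggt1 between both hormones falls to 0.95 there.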

How the data were processed

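RNA from 3 cultures was measured on 1-colour Agilent arrays, 1 per group, on 1 slide and in 1 scan. The scanner files, as deposited, give intensity per spot on a linear scale. Background had been subtracted and each array detrended, per the file headers, which name Agilent Feature Extraction 10.7.1.1 and mm9; version 9.5.1.1 is the one in the submitters' processing notes. Control spots and 1489 probes with outlier flags were left out, leaving 55116. Intensities were log2-transformed and set to the 75th percentile of their array (vehicle 371, calcitriol 380, calcidiol 401). That percentile was taken over all non-control spots, flagged ones included. No test was run, since groups hold 1 array. Each gene took the value of the brightest of its probes well above background on both arrays. Where 1 array had no such probe, a bound was computed. Of 56605 probes, 58.3% were named by accession in RefSeq and 23616 kept the file's name; all 15 member probes had the same name in both. The deposited value table, on a linear intensity scale (log2 median 3.71 in each column, correlation with the scanner at least 0.9999; its normalisation and the tool behind it are not given in the sources used here), served as an alternative.

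Members, gene lists and tests were chosen with earlier results of these data known. Named genes were all members, the 5 genes nearest to Mep1a, and markers. List genes past 2-fold, or at the top or bottom of a list for each hormone, were named as well. Undetected list genes were added after their values were seen. So were Ggt6, Ggt7, Ggct, Bmp1, Folh1, Ece1, Ecel1, Slc15a2, Eps8, Slc9a3r1, Cdhr2, Myo1a, Cyp24a1, Cpq, Cpd, Aopep and Spint1. There were 14 alternatives: other scalings, background corrections, offset, detection filters, outlier spots, source, probe rule and fold thresholds, with 2 added after seeing the data. The number of arrays limits the precision. Over 233, 249 and 257 probes printed in replicate spots, the median coefficient of variation was 6.71%, 8.54% and 3.70% for vehicle, calcitriol and calcidiol. Some list genes are not reported here. The counting was tested on simulated data. Software was limma 3.58.1 (R 4.3.3), pandas 2.3.3, numpy 2.4.6 and matplotlib 3.10.9 (Python 3.11.15).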

Additional observations from a re-analysis of the deposited data

How the results depend on the processing

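No direction past 2-fold of a member reversed under the 14 alternatives; Mme with calcidiol, under 2-fold, turned from 0.25 to -0.21 with the mean over probes. The Mep1a bound for calcitriol fell to 2.21 (normexp with quantile normalisation) and 2.81 (offset of 32), and that for calcidiol to 1.82 and 2.35; calcitriol against calcidiol was 0.73 with median centring. With a 1.5-fold threshold the count of members rose from 2 to 3 for calcitriol and from 1 to 2 for calcidiol against vehicle, Anpep being added in both. It was 0 for calcitriol against calcidiol with normexp and at 3-fold. Leaving out the outermost 6 rows and columns removed both Cpm probes that had a difference. The count over the 6 peptidase lists was 3 for calcitriol against vehicle. It became 8 with the positive-and-significant filter, 8 with no filter and 9 at 1.5-fold. With Cpm lost, it was 2 under normexp, at 3-fold and without the outermost 6 rows and columns. For calcidiol against vehicle it was 2 and became 1 with normexp, 1 with the offset, 6 with each looser filter and 1 at 3-fold. For calcitriol against calcidiol it was 2 and became 1 with median centring, 0 with normexp, 1 with the offset, 8 with each looser filter, 5 at 1.5-fold and 0 at 3-fold. A lower fold or looser filter admits more genes by construction; the cause of the other moves was not tested.

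Median centring shifted the median of all genes to 0.13, -0.09 and 0.22 for calcitriol against vehicle, calcidiol against vehicle and calcitriol against calcidiol. It moved the share of higher genes among those at least 2-fold apart from 38.7% to 55.2% and from 23.4% to 47.6% in the comparisons of calcitriol with vehicle and with calcidiol. Normexp gave 50.2% for calcitriol and 94.0%, from 83.9%, for calcidiol against vehicle. Leaving out the outermost 6 rows and columns and taking the percentile over probes were chosen after seeing the data. No paired analysis was possible because each group has 1 array, and no array could be left out. Spots near background, such as Mep1a with vehicle and Astl, carry the least certain values.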
